A study of Rattus norvegicus with 6 samples.

Results

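miR-132 and miR-212 are a pair of miRNAs from 1 short stretch of rat chromosome 10, and the level of each of their arms was compared between control and 4-nonylphenol (4-NP)-treated sertoli cells. Every mature miRNA whose name is rno-miR-132 or rno-miR-212, with or without an arm ending, was taken. This gave 4 of the 734 mature miRNAs in the deposited table, which are the 5p and 3p arms of both hairpins, and all 4 were among the 549 that had enough reads to be tested. Small RNA came from rat primary sertoli cells of Sprague-Dawley pups in early postnatal life, enriched by enzymatic digestion of the testes and passaged in medium with fetal bovine serum. The 3 control samples received no 4-NP and the 3 treated samples received 0.5 mM 4-NP, a xenoestrogen of the alkylphenol type, with collection at 24 h. No transgene, deletion or hormone addition is given for either group. The labels do not say whether the 3 samples of a group came from separate animals or cultures, so the p-values measure the spread between these samples, which may be technical.

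Both miRNAs are cut from 1 primary transcript whose gene carries binding sites for CREB, the transcription factor that protein kinase A activates when cAMP rises. In neurons the pair is known as an activity-dependent set, and in the ovary and the adrenal it is known to rise when gonadotropin or ACTH raises cAMP. Follicle-stimulating hormone (FSH) signals through the same cAMP route in sertoli cells. Each hairpin yields a 5p strand from its left arm and a 3p strand from its right arm, and the strand kept in an Argonaute protein reads target mRNAs mainly through its seed, bases 2 to 8. miR-132-3p is the strand most often described as the active one in neurons.

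The mature sequences are shown because the seeds decide which of the 4 arms can address the same sites. They are from RefSeq (GRCr8 assembly), 5′ to 3′, with the seed in capitals.
rno-miR-132-5p: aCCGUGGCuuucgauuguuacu
rno-miR-132-3p: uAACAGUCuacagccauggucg
rno-miR-212-5p: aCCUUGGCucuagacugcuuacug
rno-miR-212-3p: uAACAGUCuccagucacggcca
The 3p arms had the same seed, AACAGUC, and no other of the 693 mature rat miRNA names in the reference table had it. From 1 at the 5′ end, miR-132-3p and miR-212-3p were identical at 17 of 22 positions and the differences (miR-132-3p base first) were A10C, C14U, U17C, U20C and G22A, all outside the seed. The 5p arms were identical at 14 of the first 22 positions. Their first difference, G4U, lies inside the seed, so that miR-132-5p and miR-212-5p had different seeds, each shared with no other name in the table. The miR-132 hairpin, with both mature arms in capitals, shows how the strands lie on either side of the loop.
Mir132 hairpin: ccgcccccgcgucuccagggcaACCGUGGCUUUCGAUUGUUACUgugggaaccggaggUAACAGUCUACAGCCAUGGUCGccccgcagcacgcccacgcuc
In the GRCr8 gene table Mir212 and Mir132 are neighbours with no other gene between them. On one side the next gene is Hic1, a transcriptional repressor, and on the other side a long non-coding RNA gene, LOC120095261. The genome build behind the deposited counts is not given in the sources used here, so no coordinates are stated.

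The libraries held 20023200 to 23426742 reads on mature miRNAs, which was 81.9 to 85.2% of all counted reads, and levels are given as CPM, the count divided by the mature miRNA reads of the same sample and scaled to 1000000. At this depth 3 reads, taken as the most that a count of 0 allows, correspond to 0.128 to 0.150 CPM. The reads were not collapsed to molecules, so this limit and the intervals of shares cover counting error only. All 4 Sertoli marker rows (miR-202 and miR-140 arms) were in the table, with a summed level of 1382 to 1897 CPM in the controls and 1213 to 1404 CPM after 4-NP. miR-202-3p was among them at 0 reads in 4-NP replicate 3. Markers of other cells were also present. The 4 smooth muscle or myoid markers summed to 120538 to 136220 CPM in the controls and 88380 to 96688 CPM after 4-NP. Most of this was miR-143-3p, with 117869 to 133846 and 86726 to 94741 CPM. The 2 endothelial markers, led by miR-126a-3p, summed to 6325 to 7615 and 3234 to 3805 CPM. In the edgeR test described below, 1 of the 4 smooth muscle or myoid markers was called lower and 0 higher. Of the 2 endothelial markers 2 were called lower. Of 9 germ cell markers, 8 were in the table and summed to 523 to 646 and 167 to 199 CPM. In the same test, 4 of these 8 were called lower and 1 higher. The 8 neuronal or neuroendocrine markers summed to 2298 to 2876 and 4401 to 4905 CPM, led by miR-7a-5p, and the defining neuronal miR-124-3p had 41 to 76 reads per sample. This rise of the sum was not shared by the whole list. Of 7 tested markers 1 was called higher and 0 lower, and miR-218a-5p had a log2 fold change of -0.51. The sum of the 3 erythroid markers, led by miR-451-5p, went from 11.0 to 40.7 CPM to 59.3 to 631 CPM. Of 2 tested erythroid markers 1 was called higher and 0 lower. The third, miR-144-3p, had 2 to 16 reads per sample and was not tested. The 3 myeloid markers had 8.05 to 10.5 and 8.36 to 14.1 CPM. By read counts 4-NP replicate 3 differed from the other treated samples by a chi-square per degree of freedom of 821 and 942, against 154 to 342 for the remaining pairs within a group, and results on the 4 arms are given with and without it. Single abundant miRNAs can weigh heavily in this measure. miR-24-3p had 922345 reads in that library against 391760 and 261896 in 4-NP replicates 1 and 2. For let-7a-5p that library (2977 CPM) was instead near the controls (2312 to 3220 CPM), and 4-NP replicates 1 and 2 had 87.2 and 205 CPM. The part of other cells in the levels of miR-132 and miR-212 was not tested.

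None of the 4 arms was called higher or lower after 4-NP. In the quasi-likelihood test of edgeR, with Benjamini-Hochberg adjustment over the 549 miRNAs, 0 of 4 had an adjusted p under 0.05, and 0 of 4 had an unadjusted p under 0.05 or passed the thresholds of the study (fold change over 2 or under 0.5 with an unadjusted p under 0.05). DESeq2, edgeR's classic exact test and limma also called 0 of 4. Of all 549 miRNAs 7.47% were called higher, 12.8% lower and 20.2% in either direction, 35.7% had an unadjusted p under 0.05, and 15.7% passed the thresholds of the study. The median log2 fold change of the 4 arms was -0.15, and that of all 549 miRNAs was -0.02. The groups overlapped in CPM for each of the 4 arms, while they did not overlap for 42.4% of the tested miRNAs. As these are bulk samples, fewer cells of a type and less RNA per cell cannot be told apart in any of these levels.

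**Figure D1:**
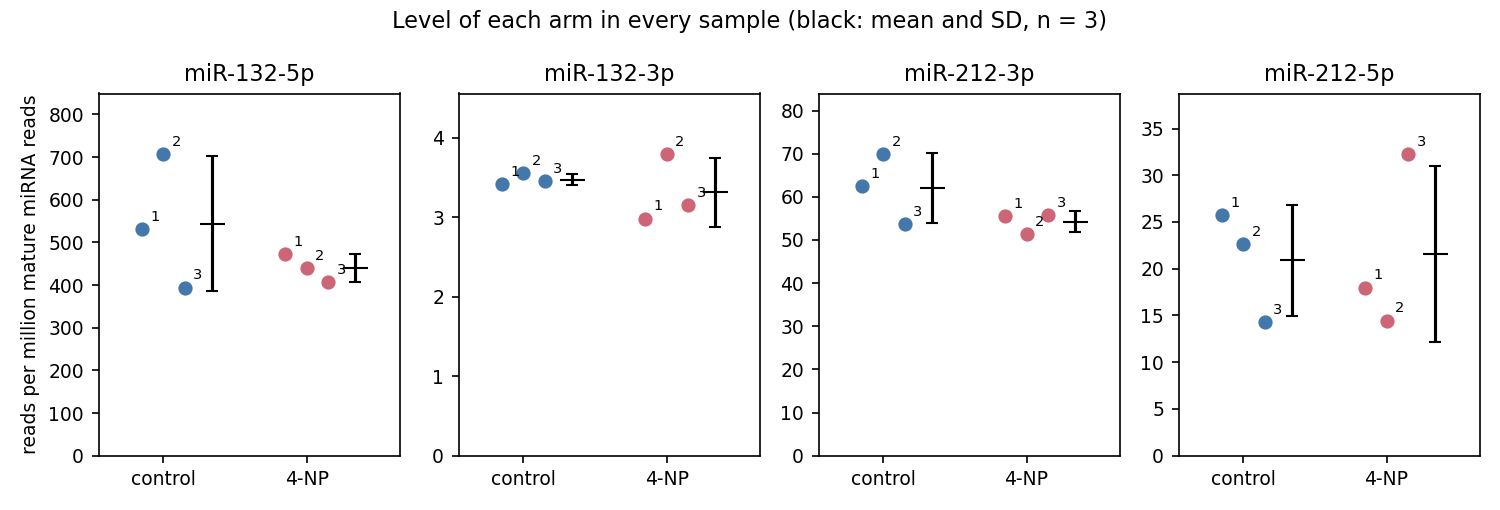
Level of each arm in CPM (vertical axis from 0) in the 3 control and 3 4-NP samples, with replicate numbers beside the points and the mean and SD (n = 3) in black. The groups overlap in all 4 panels, with the widest spread among the controls for miR-132-5p and among the 4-NP samples for miR-212-5p.

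miR-132-5p was the most abundant arm of the pair and ranked 70 of 734 mature miRNAs by mean level. Control replicates 1, 2 and 3 had 531, 707 and 393 CPM, and 4-NP replicates 1, 2 and 3 had 473, 439 and 407 CPM. The lowest sample was thus a control, and all 3 treated samples lay within the range of the controls and below the control mean. The means were 544 ± 157 and 439 ± 33.0 CPM (SD, n = 3 each). The log2 fold change was -0.31 (standard error, SE, 0.18, 95% interval -0.75 to 0.12, adjusted p = 0.260 from edgeR), so a fall to 0.595 of the control level and a rise to 1.09 times it were both inside the interval. With 8771 to 16339 reads per sample, counting error was 0.956% of the mean, against a coefficient of variation of 28.9% among the controls. Without control replicate 3, the lowest sample, the log2 fold change was -0.50 (unadjusted p = 0.0181, adjusted p = 0.0743 from edgeR). Without control replicate 2, the highest sample, it was -0.16 (adjusted p = 0.570 from edgeR), and without 4-NP replicate 3 it was -0.29.

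miR-132-3p, the arm best known from neurons, was the rarest of the 4, at rank 378. Control replicates 1, 2 and 3 had 80, 82 and 77 reads, or 3.41, 3.55 and 3.45 CPM. The 4-NP samples had 66, 76 and 69 reads, or 2.98, 3.80 and 3.15 CPM. The highest and the lowest sample were both treated ones. The means were 3.47 ± 0.0696 and 3.31 ± 0.429 CPM (SD, n = 3 each), and counting error alone was 11.5% of the mean. Its log2 fold change was -0.09 (SE 0.17, 95% interval -0.50 to 0.32, adjusted p = 0.748 from edgeR), which is 0.708 to 1.25 times the control level. Without 4-NP replicate 3 it was -0.08, without control replicate 2 it was -0.14, and without 4-NP replicate 1 it was 0.02.

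miR-212-3p, which carries the same seed, ranked 178. The controls had 62.4, 70.0 and 53.7 CPM and the 4-NP samples 55.6, 51.4 and 55.8 CPM. One treated sample, replicate 2, lay below all controls, and the other two lay between control replicates 3 and 1. The means were 62.0 ± 8.14 and 54.3 ± 2.49 CPM (SD, n = 3 each). The log2 fold change was -0.21 (SE 0.13, 95% interval -0.52 to 0.11, adjusted p = 0.292 from edgeR). This was the narrowest interval of the 4 arms, from 0.699 to 1.08 times the control level. With 4-NP replicate 3 left out, the fitted log2 change was -0.25 (adjusted p = 0.333 from edgeR), and without 4-NP replicate 2, the lowest sample, it was -0.08 (adjusted p = 0.760).

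miR-212-5p ranked 238 and varied most. The controls had 25.7, 22.6 and 14.3 CPM and the 4-NP samples 18.0, 14.4 and 32.3 CPM. The highest sample was 4-NP replicate 3, which had 2.26 times the level of the lowest sample, control replicate 3. The means were 20.9 ± 5.89 and 21.6 ± 9.45 CPM (SD, n = 3 each), and the log2 fold change was 0.05 (SE 0.37, 95% interval -0.84 to 0.94, adjusted p = 0.947 from edgeR). With 4-NP replicate 3 left out, it was -0.41 (adjusted p = 0.364 from edgeR), and without control replicate 3 it was -0.16 (adjusted p = 0.796), so that its direction rested on single samples.

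**Figure D2:**
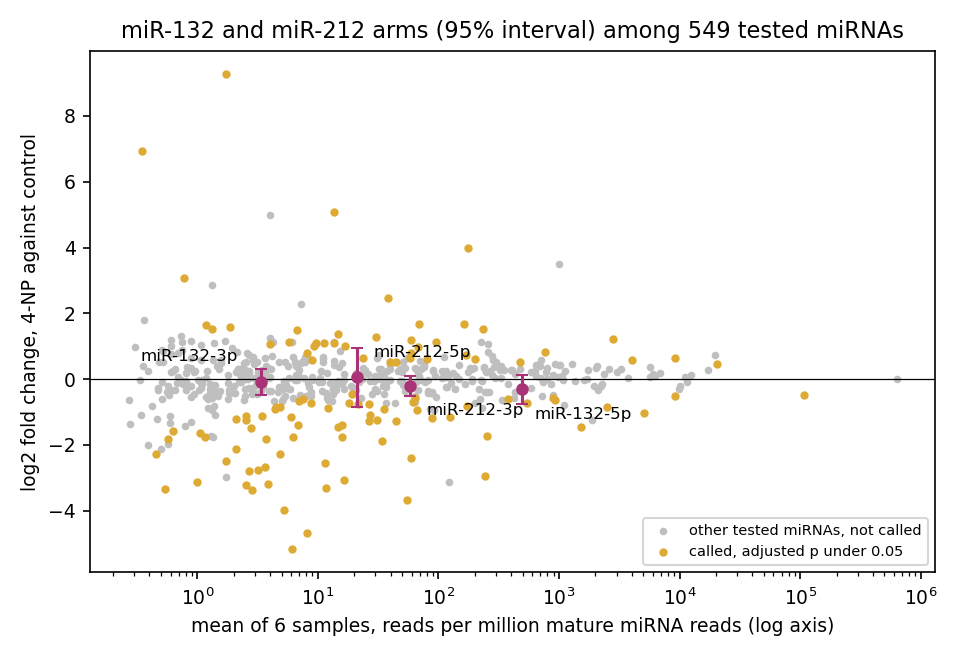
Log2 fold change of 4-NP against control (vertical axis) by mean level (horizontal log axis) for the 549 tested miRNAs, with the 4 arms in purple and their 95% intervals. The intervals of all 4 arms cross 0, and the miRNAs called at an adjusted p under 0.05 are in yellow.

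The arms with the shared seed AACAGUC were also added up, since they can address the same sites. The sum was 65.8, 73.5 and 57.2 CPM in the controls and 58.6, 55.2 and 59.0 CPM after 4-NP. Replicate 2 of the treated samples was lowest, and the other treated samples lay between control replicates 3 and 1. Among reads counted on mature arms, miR-212-3p made up 93.1 to 95.2% of this sum, although miR-132 took more reads than miR-212 over both arms. Reads on the mir-132 precursor family entry described below are not in the sum. They outnumbered those of miR-132-3p, and their part in the make-up and level of the sum was not tested. In edgeR the log2 fold change of the sum was -0.19 (SE 0.13, 95% interval -0.50 to 0.11, adjusted p = 0.312), which is 0.707 to 1.08 times the control level, and -0.25 without 4-NP replicate 3.

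Among the reads counted on mature arms, most were on the 5p arm for miR-132 and on the 3p arm for miR-212. For miR-132 the 3p arm held 0.639, 0.499 and 0.870% of these reads in control replicates 1, 2 and 3 and 0.627, 0.857 and 0.769% in those of 4-NP, with Wilson 95% intervals that together ran from 0.403 to 1.09%. There were 114 to 199 reads of miR-132-5p for each read of miR-132-3p. For miR-212 the 3p arm held most reads, with 70.8, 75.5 and 79.0% in the controls and 75.6, 78.1 and 63.3% after 4-NP. The share in 4-NP replicate 3 (Wilson 95% interval 61.2 to 65.5%) lay below that in every other sample, and this was the sample with the highest miR-212-5p level. Strands differ in how well adapters join to them, so these are shares of reads and not of molecules.

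Neither arm ratio differed between the groups beyond the spread of the samples. The log2 ratio of 3p to 5p reads was -7.24 ± 0.405 in the controls and -7.05 ± 0.230 after 4-NP for miR-132 (SD, n = 3 each, two-sided exact permutation p = 0.7). For miR-212 it was 1.60 ± 0.314 and 1.42 ± 0.552 (SD, n = 3 each, exact permutation p = 0.6). The log2 ratio of miR-212 to miR-132 reads, both arms added, was -2.70 ± 0.214 and -2.55 ± 0.292 (SD, n = 3 each, exact permutation p = 0.6). Among the reads counted on the mature arms of the pair, miR-212 gave 11.5 to 17.7%. These 3 comparisons cannot reach a p below 0.1 with 3 samples against 3, and the Benjamini-Hochberg adjusted p over them was 0.7 for each. Without 4-NP replicate 3 the difference between the groups turned from -0.19 to 0.12 for the miR-212 arms and from 0.14 to -0.03 for miR-212 over miR-132. For the miR-132 arms the difference of 0.19 was -0.0003 without control replicate 2 and 0.40 without control replicate 3. Leaving out 1 sample at a time gave differences of -0.0003 to 0.40 for the miR-132 arms, -0.40 to 0.12 for the miR-212 arms and -0.03 to 0.24 for miR-212 over miR-132, so that the size of each rested on single samples. With the 3p arms alone, the difference for miR-212 over miR-132 was -0.11. Library scaling cancels in such ratios.

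**Figure D3:**
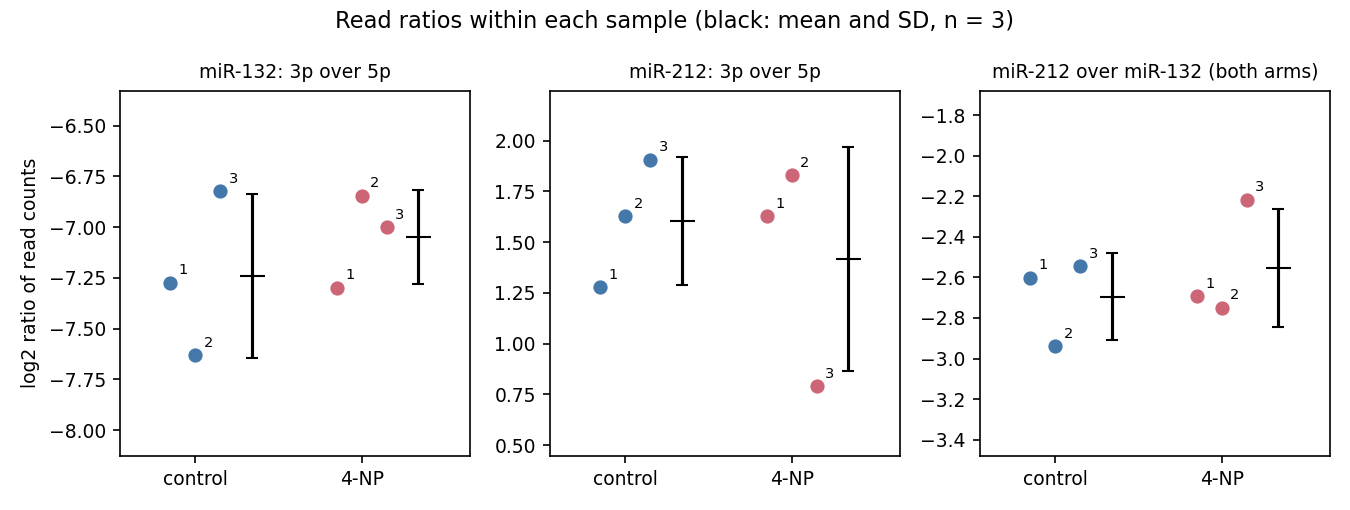
Log2 ratios of read counts within each sample for the 3p against the 5p arm of miR-132, the 3p against the 5p arm of miR-212, and miR-212 against miR-132, with replicate numbers and the mean and SD (n = 3) in black. The groups overlap in each panel, and 4-NP replicate 3 is lowest for the miR-212 arms and highest for miR-212 over miR-132.

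Arm shares were compared over known hairpins with both arms in the table under the same name and at least 100 reads on average. Hairpins whose arms differ in locus number, such as those of miR-24, were left out. Among the 197 hairpins taken, the 5p arm held 99.3 ± 0.146% of the miR-132 reads and 26.3 ± 5.81% of the miR-212 reads (mean and SD over the 6 samples). A 5p share at least as high as that of miR-132 was found for 38 of the 197, miR-132 included, which is 19.3%. In 69 hairpins 1 arm held at least 99% of the reads, whereas miR-212 lay between the extremes. These shares cover only reads counted on mature arms. Reads placed on the precursor family entry described next could change that of miR-132 and possibly that of miR-212.

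**Figure D4:**
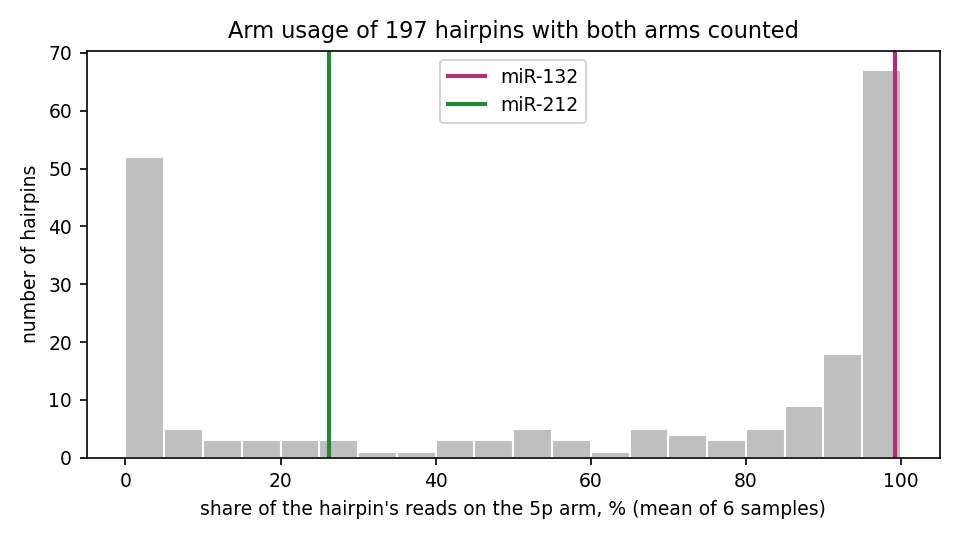
Number of hairpins (vertical axis) by the share of their reads on the 5p arm, in % (horizontal axis, mean of 6 samples). The 197 hairpins are those with both arms counted under the same name. miR-132, at 99.3%, lies in the tall column at the right edge and miR-212, at 26.3%, in the sparse middle range.

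The table also counts reads on precursor families, and 1 such entry is the Rfam family named mir-132. The controls had 4755, 5751 and 3766 reads of it and the 4-NP samples 3917, 3695 and 3565, which is 203, 249 and 169 against 177, 185 and 163 when scaled like CPM to the mature miRNA reads. Control replicate 2 was highest and the 4-NP samples lay at the lower end of the control range or below it. On the log2 scale the groups differed by -0.23 (two-sided exact permutation p = 0.3, n = 3 each, with 0.1 the smallest possible p). The difference was -0.09 without control replicate 2 and -0.36 without control replicate 3. This family entry held 48.6 to 70.1 reads for each read of miR-132-3p. The rule by which reads were given to the family entry rather than to a mature arm is not given in the sources used here. Whether the entry also holds reads of miR-212 is likewise not given there. Its part in the low count and share of miR-132-3p, and in the shared seed sum, was not tested. Nor was its part in the arm shares of miR-212 and in the ratio of miR-212 to miR-132.

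The arms were also compared by their pattern over the samples. As a measure of likeness, each miRNA's log2(CPM + 1) values were centred on their mean over the 6 samples and the root mean square difference from miR-132-5p was taken. It was 0.16 for miR-212-3p, 0.28 for miR-132-3p and 0.44 for miR-212-5p, with a median of 0.38 over the 460 other known miRNAs with at least 20 reads on average. A miRNA whose level barely varies scores only the spread of miR-132-5p itself. As miR-132-3p ranged only from 2.98 to 3.80 CPM, its value below the median does not show a shared pattern. By this measure 9 of the 460 were closer to miR-132-5p than miR-212-3p was, and 110 were closer than its own partner strand miR-132-3p. The closest were miR-328a-3p (0.11), miR-224-5p (0.12) and miR-485-5p (0.14). miR-328a-3p had 31.9, 49.2 and 22.9 CPM in the controls and 30.7, 23.9 and 26.7 CPM after 4-NP, and so shared with miR-132-5p the high value in control replicate 2 and the low value in control replicate 3. These are distances over 6 samples, in each of which both values come from the same library, and they were not tested.

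Other miRNAs were taken from those known to respond to ACTH, which acts through cAMP, in the rat adrenal. In that tissue miR-132, miR-212, miR-182, miR-183 and miR-96 are known to rise and miR-466b, miR-214, miR-503 and miR-27a to fall. Every arm of a name was taken, so an entry called known to rise or fall is known so by name only, not by arm. Whether cAMP controls these miRNAs in sertoli cells was not tested. Leaving out miR-132 and miR-212, the list had 14 entries in the table, of which 12 were tested, 4 were called higher, 3 were called lower and 5 were not called, so that 58.3% were called against 20.2% of all tested miRNAs. The list was chosen with earlier results of these data known, and several entries are arms of the same hairpin or share a cluster. The entries are thus not independent, and the difference between these percentages was not tested. Log2 fold changes centred on 2.27 among the 3 tested entries known to rise and on 0.28 among the 9 known to fall (medians). The 2.27 is the value of miR-183-5p, which was not called and varied widely between samples. The pooled median, 0.66, mixes both parts and so gives no direction.

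Of the 3 tested entries known to rise with ACTH, 2 were called higher. miR-182 had 11.7 ± 1.23 CPM in the controls and 64.8 ± 8.33 CPM in the treated samples (SD, n = 3 each). miR-96-5p, from the same cluster, had 32.3 ± 3.15 and 106 ± 26.0 CPM (SD, n = 3 each). The third entry, miR-183-5p, had 14, 25 and 120 reads in control replicates 1, 2 and 3 and 396, 358 and 8 reads in those of 4-NP. It was not called (log2 fold change 2.27, SE 1.31, adjusted p = 0.256 from edgeR). The 9 entries known to fall with ACTH were split, with 3 called lower, 2 called higher and 4 not called. miR-503-5p had 99.5 ± 4.30 and 19.0 ± 4.05 CPM (SD, n = 3 each, log2 fold change -2.41, SE 0.21, adjusted p = 0.000487 from edgeR), and both arms of miR-214 fell (log2 fold changes of -0.74 for miR-214-3p and -1.76 for miR-214-5p). miR-27a-5p and miR-466b-5p rose instead, with log2 fold changes of 0.80 and 0.78. The miR-466b entries come from a family of near-identical genes, between which the counting could have split reads. The 95% intervals of miR-182 (2.05 to 2.88) and miR-96-5p (1.14 to 2.24) lay above those of all 4 arms of miR-132 and miR-212, whose highest upper bound was 0.94. The differences between these miRNAs were not tested.

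**Figure D5:**
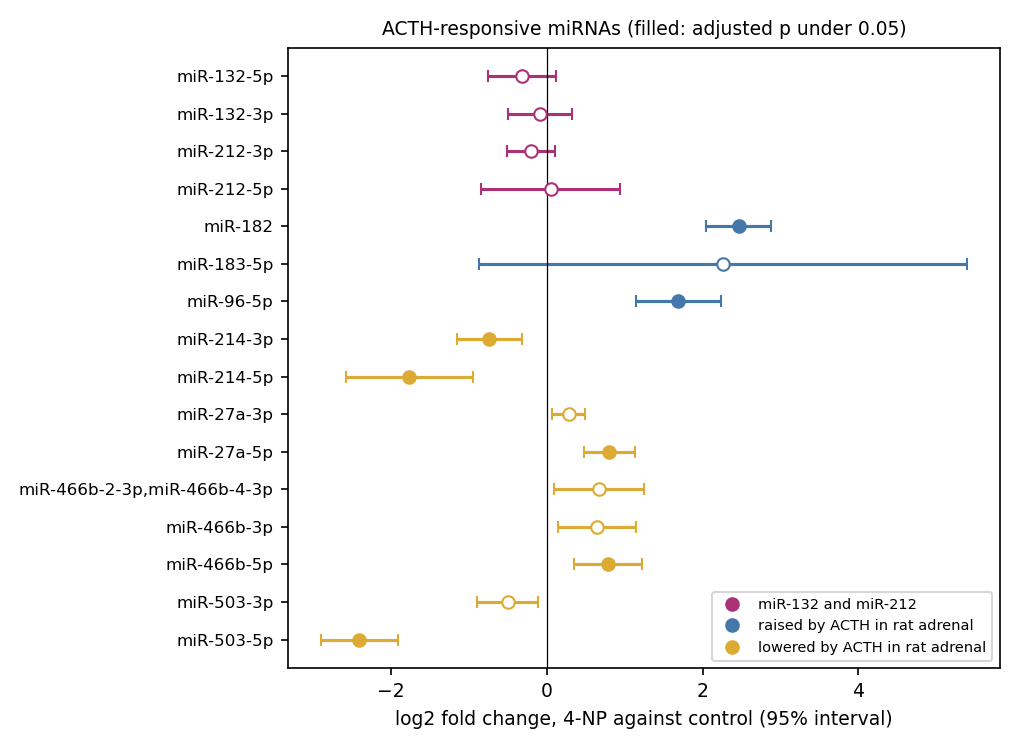
Log2 fold change of 4-NP against control with its 95% interval (horizontal axis), with filled points for an adjusted p under 0.05. Shown first are the 4 arms of miR-132 and miR-212. The other 12 are tested entries of miRNAs known, by name and not by arm, to respond to ACTH in the rat adrenal. The intervals of miR-132 and miR-212 cross 0, miR-182 and miR-96-5p lie to the right of them, and the entries known to fall with ACTH lie on both sides of 0.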

How the data were processed

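Small RNA of 18 to 30 nt was sequenced from 3 control and 3 4-NP samples. The authors counted reads on each small RNA and deposited raw read counts in 1 table of 2363 rows. The submitters' processing notes name HISAT2 and DESeq2, with no role. The miRNA database, the genome build and the rule for assigning reads are not given in the sources used here. The 6 further deposited columns named for molecular identifiers were not used. Samples were grouped by their titles, and treated columns were matched by number. The 4 arms and the miRNA lists were chosen with earlier results of these data known.

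The main test was the two-sided quasi-likelihood F test of edgeR 4.0.16 (R 4.3.3) with TMM normalization (factors 0.947 to 1.09), the default filterByExpr filter, no replicate block and Benjamini-Hochberg adjustment over 549 miRNAs. The standard error is the log2 fold change over the square root of F. Printed CPM, scaled to 1000000, used the sum of mature counts without TMM factors, and single ratios were compared by exact permutation tests (SciPy 1.17.1) after 0.5 was added to each count. The procedure was run on simulated counts drawn with 1 common dispersion (0.118) for all miRNAs and no effects of single samples. That simulation does not cover replicate differences such as those given at the end of this paragraph. Named were all 4 arms, the ACTH list and the 3 miRNAs most like the most abundant arm. Alternatives were DESeq2 1.42.0, limma 3.58.1 on log2(CPM + 1), the classic exact test, other scalings and filters, known miRNAs only, a replicate block, other pseudocounts and the omission of each sample. The replicates of a group differed beyond counting error (chi-square per degree of freedom of at least 154).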

Additional observations from a re-analysis of the deposited data

How the results depend on the processing

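No arm of miR-132 or miR-212 was called in either direction under any of the 16 alternatives (0 of 4 each time). The log2 fold change of miR-132-5p stayed negative, between -0.50 and -0.16 (adjusted p of 0.0743 to 0.570), as did those of miR-212-3p, between -0.29 and -0.08 (adjusted p of 0.195 to 0.760), and of the shared seed sum, between -0.28 and -0.14. That of miR-132-3p was between -0.14 and 0.02, and it turned positive (0.018) in the fit without 4-NP replicate 1. That of miR-212-5p turned negative with limma on log2(CPM + 1) (-0.013), with the replicate block (-0.032), without control replicate 3 (-0.16) and without 4-NP replicate 3 (-0.41), and over the fits without 1 sample it ran from -0.41 to 0.36. The cause was not tested. Same-numbered samples did not deviate together from their group means (r of -0.30, -0.27 and -0.02 across miRNAs). For samples of unlike number r ran from -0.09 to 0.30, highest for control replicate 1 with 4-NP replicate 2. Such values cannot show whether samples share a batch. The replicate block left 26 miRNAs called higher in place of 41, and 56 called lower in place of 70. It turned no other direction among the arms and called none. Over the alternatives the ACTH list had 3 to 5 entries called higher and 2 to 3 called lower. Without 1 sample, the group difference in log2 ratio ran from -0.0003 to 0.40 for the miR-132 arms, -0.40 to 0.12 for the miR-212 arms and -0.03 to 0.24 for miR-212 over miR-132, which was -0.11 with the 3p arms alone, and that of the precursor family from -0.36 to -0.09. With 66 to 82 reads per sample, depth limits miR-132-3p most.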
